A study of Bos taurus with 24 samples.

Results

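TMEM176B and C19H17orf80 were the genes examined, 2 of 9026 genes tested in cattle ovarian follicles, and each was measured by 1 of 17418 array features. They were chosen by the spread of their levels over the follicles in earlier results of these data, and were found by gene symbol in the platform annotation. The size of their differences between follicles is therefore a description. Intervals given with it describe array error, and a comparison with a p-value is given only where the choice did not use it. Total RNA of the largest follicle of each of 16 heifers, 8 to 12 mm across, was hybridised on 24 two-colour arrays. A pair of follicles shared an array, and the 3 arrays of each follicle linked it to others in a loop. Follicles 31, 33, 46, 861, C10, C12, C13 and H893 formed a set. Only the arrays of C10 over 26 and of C26 over 33 joined this set to the other follicles. Any comparison between this set and the others, such as C32 with 46, passes through those arrays. Apart from an identifier the labels say nothing of treatment, genotype, breed, age, stage or dominance. The labels name ovarian follicles and no isolated cell type, so fewer cells of a type and less RNA per cell cannot be told apart.

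TMEM176B is a membrane protein with several membrane-spanning segments, related to the MS4A family. It is abundant in immature dendritic cells and macrophages, sits mainly on intracellular membranes, and is known to restrain the NLRP3 inflammasome. TMEM176A is its paralogue and lies next to it in the genome. C19H17orf80 is the bovine counterpart of human C17orf80, a little-studied protein found in mitochondria close to mitochondrial DNA. In ovarian follicles, granulosa cells surround the oocyte and make oestradiol, theca cells supply the androgen precursor, and macrophages and lymphocytes lie mainly in the theca.

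Levels below are log2 values relative to the mean of the 16 follicles, estimated from all 24 arrays with a follicle effect and a dye term. The standard error (SE) of a level reflects array error over 3 arrays; with 1 follicle per heifer it says nothing of the spread between animals. The deposited log ratios were taken as log2 and as Cy5 over Cy3. That direction is the likely one, since the titles name the Cy5 follicle first, but no source states it; if it were inverse, every level would change sign. Between 16094 and 17028 features had a value on each array, signal over background is unknown, and the number of arrays limits the precision. Follicle J980 stood apart from the others: of the 1061 genes (11.8% of 9026) past the threshold of the limma F test between follicles, 421 had their lowest level in it. The ranges, the correlations and the counts of called genes are given with and without it where it changed them. The rule that chose both genes used this F test, and nothing about them is read from it.

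TMEM176B differed 10.4-fold between the highest and the lowest follicle, a log2 difference of 3.37 ± 0.26 (SE). Its log2 level was 1.25 in follicle C32, 1.04 in follicle 8 and 0.97 in follicle 27. A run of 10 follicles then lay close together, with C26 at 0.49, C10 at 0.41, J980 at 0.31, C13 at 0.28, C35 at 0.25, 861 at 0.24, C12 at 0.12, H893 and C22 both at -0.12, and 26 at -0.24. Follicle 33 was lower at -0.83, and follicles 31 and 46 were lowest at -1.93 and -2.12. The SE of each level was between 0.14 and 0.15.

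Most neighbours in this order did not differ beyond array error, but 83 of all 120 pairs of follicles did. Of the 15 gaps between neighbouring follicles, 3 had a 95% interval of the difference above 0. The follicles were ordered by these same levels, so no gap can be negative. The intervals are not adjusted for the 15 gaps and test no step. The gap from 27 down to C26 was 0.48 ± 0.19 (SE), the gap from 26 down to 33 was 0.59 ± 0.22, and the gap from 33 down to 31 was 1.10 ± 0.19. No gap inside the run of 10 had such an interval.

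C19H17orf80 had a nearly equal spread, 10.5-fold between its extremes or a log2 difference of 3.39 ± 0.26 (SE). Here too C32 was highest and 46 was lowest. Its log2 level was 2.18 in C32 and 1.78 in J980. A middle stretch ran without a clear break from C26 at 0.86, 33 at 0.69, 8 at 0.60, 27 at 0.50, 861 at 0.32 and C22 at 0.09 to C12 at -0.24. The lowest 7 follicles were C10 at -0.67, C13 at -0.78, 31 at -0.95, C35 and 26 both at -1.05, H893 at -1.08 and 46 at -1.21. The SE of each level was between 0.14 and 0.16.

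For C19H17orf80 88 of the 120 pairs of follicles differed beyond array error. Only 1 of the 15 neighbouring gaps had an interval above 0, the gap of 0.92 ± 0.21 (SE) from J980 down to C26. The gap from C12 to C10 was 0.43 ± 0.21 and that from C32 to J980 was 0.40 ± 0.19, and both intervals reached 0. Without J980 and its 3 arrays the range was 3.50, and that for TMEM176B was 3.36.

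**Figure D1:**
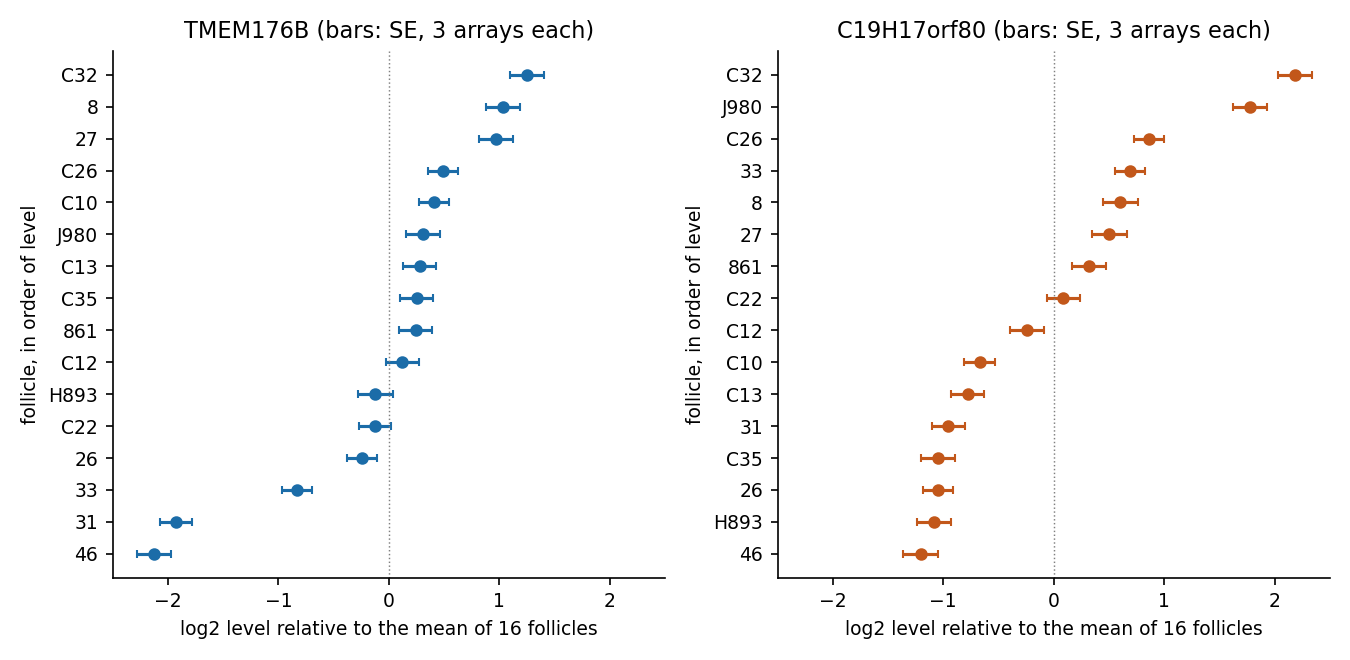
The log2 level of TMEM176B (left) and C19H17orf80 (right) in each of the 16 follicles, in order, relative to the mean of all follicles; points are levels from the loop and bars are the SE over 3 arrays. TMEM176B has 10 follicles between -0.24 and 0.49 with tails on both sides. C19H17orf80 has 2 high follicles, a gradual middle stretch and a low run.

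The shape of each distribution was set beside that of all genes. The largest gap of TMEM176B, between 33 and 31, took 32.6% of its range. The median share was 23.2% over all 9026 genes and 25.6% over the genes past the F test, and TMEM176B stood at the 83.4th and 71.9th percentile of these. The largest gap of C19H17orf80 took 27.1% of its range, at the 67.9th and 55.4th percentile. Leaving out 1 array at a time moved the share between 24.7% and 39.0% for TMEM176B and between 18.9% and 32.2% for C19H17orf80, and without J980 and its arrays the second became 38.4%.

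Cutting the ordered levels into the best 3 runs took up 88.7% of the variance of TMEM176B, against a median of 88.4% for all genes. For C19H17orf80 the 3 runs took up 93.2%, the 93.5th percentile of all genes and the 91.4th of genes past the F test. The division of TMEM176B into runs was thus near that of a typical gene, while the 3 runs of C19H17orf80 took up more than in most genes. No step was tested, since any 16 ordered values can be cut into runs.

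Single arrays were then compared with the ratio that the other 23 arrays give. The choice of both genes used these same arrays, so the match is a description and no independent support. The measured log2 ratios of TMEM176B ran from -2.43, for 31 over C10, to 2.71, for C13 over 46. They had the sign given by the other arrays on 23 of 24 arrays, and the exception was the array of 8 over C32, measured at -0.31. The median absolute difference was 0.25, near the 0.21 that was the median over 7521 genes with values on all arrays. The largest was 0.89, on the array of 33 over C12.

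For C19H17orf80 the ratios ran from -2.60, for 26 over J980, to 1.52, for 33 over C13, and 20 of 24 had the sign given by the rest. The 4 exceptions were no larger than 0.56 in size. The median absolute difference was 0.33. The largest, 0.84, fell on the arrays of C10 over 26 and of C26 over 33. Only these arrays join the set of follicles with 46 to that with C32. The design makes their differences equal for any gene with values on all arrays, and both were -0.20 for TMEM176B. For C19H17orf80 they were measured at 0.56 and 0.35, against -0.28 and -0.49 given by the other arrays.

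**Figure D2:**
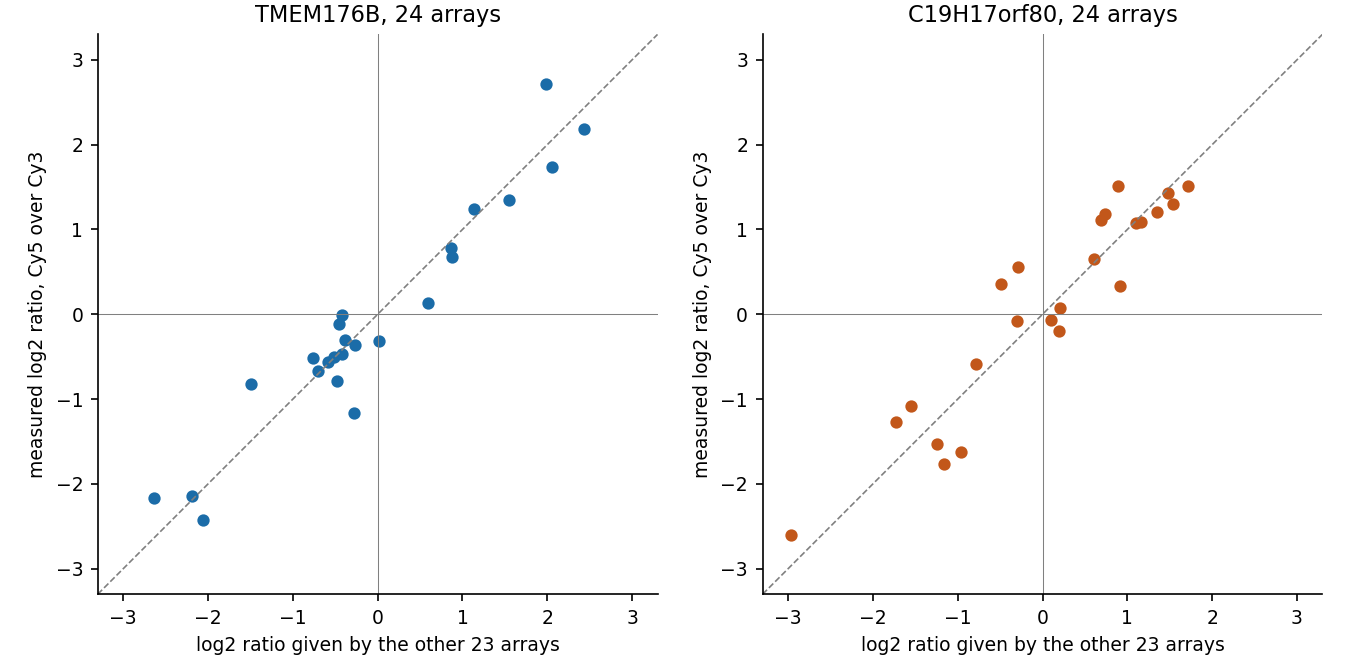
The measured log2 ratio of each of the 24 arrays (vertical) against the log2 ratio given by the other 23 arrays (horizontal), for TMEM176B on the left and C19H17orf80 on the right; the dashed line marks equal values. Points in the lower left and upper right have the same sign, 23 of 24 for TMEM176B and 20 of 24 for C19H17orf80.

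A dye bias of the features was tested on its own, since the choice of genes did not use it. The dye term was 0.04 ± 0.05 (SE) for TMEM176B (adjusted p = 0.566, limma with Benjamini-Hochberg adjustment) and 0.12 ± 0.05 for C19H17orf80 (adjusted p = 0.112). Of all genes, 15% passed the threshold for this term.

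The levels of both genes correlated positively over the 16 follicles, with a Pearson's r of 0.56 and a Spearman's rho of 0.64. Of the 16 follicles, 10 lay on the same side of the mean for both. Over the measured array ratios r was 0.26. In the fits described below, the slope of C19H17orf80 on TMEM176B was 0.62 unweighted and 0.25 when weighted for the loop. Without 46 and 31, the follicles farthest from the median of TMEM176B, r was 0.44 and rho 0.51, and without J980 r was 0.58. C32 was highest and 46 lowest for both. Follicle 33 differed most in rank, with the third lowest TMEM176B level and the fourth highest C19H17orf80 level. Both genes share the arrays, and the correlation is given as a description.

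**Figure D3:**
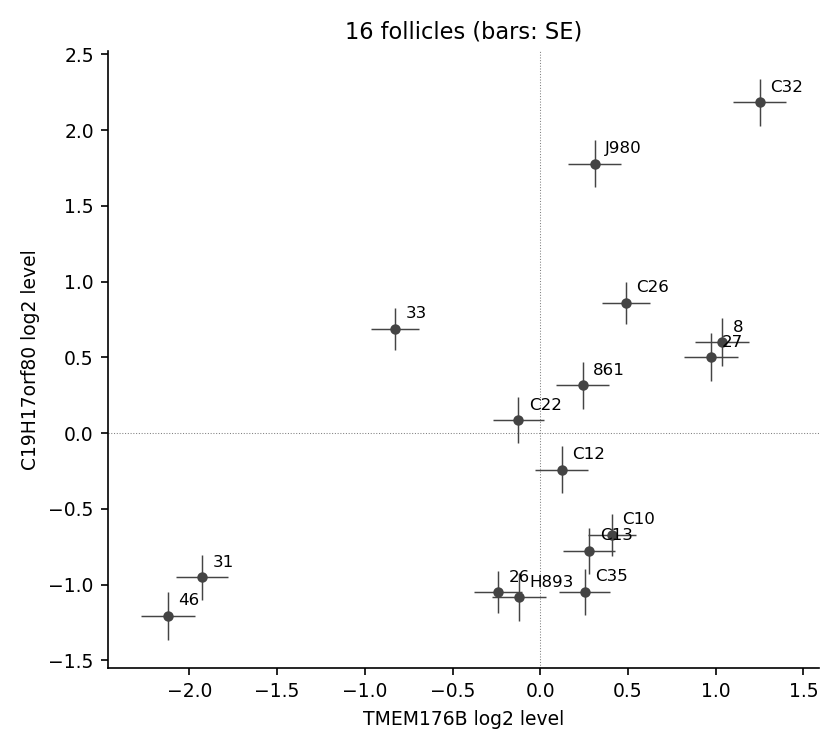
The log2 level of C19H17orf80 (vertical) against that of TMEM176B (horizontal) in the 16 follicles, with SE bars in both directions. C32 is at the top right and 46 and 31 at the bottom left, while 33 lies at the upper left.

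The genes that followed each level were sought among the other 9025 genes by limma on the 16 follicle levels. Such levels share array errors through the loop, which this fit leaves out, so the fit was repeated with weights from the covariance that the loop gives. The weighted fit was chosen after the data were seen. On simulated data the unweighted fit made many more false calls than its threshold allows. The weighted fit made fewer, though still too many in some settings. With TMEM176B, the unweighted fit called 2 genes (0.0222%), both lower where TMEM176B was higher. The weighted fit called 4 (0.0443%), all with a negative slope, and these included both. With a positive slope, limma called 0 genes (0%) in either fit, while 608 (6.74%) unweighted and 256 (2.84%) weighted had an unadjusted p under 0.05.

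COLEC12, a scavenger receptor of the collectin family, was the gene most closely opposed to TMEM176B. Its log2 level was highest in 31 at 0.83 ± 0.19 (SE) and second highest in 46 at 0.64, the follicles with least TMEM176B, and lowest in follicle 8 at -0.37 ± 0.20. The slope was -0.32 per unit of TMEM176B, with r = -0.89 (adjusted p = 0.00709 unweighted and 0.0129 weighted, limma). Without the array of C10 over 26, r was -0.55 (adjusted p = 0.46, limma unweighted). EMP1, a small tetraspan membrane protein, was likewise highest in 31 at 0.91 ± 0.12 and 0.64 in 46, and lowest in 861 at -0.46 ± 0.12. Its slope was -0.34 with r = -0.86 (adjusted p = 0.0283 unweighted and 0.0129 weighted, limma). The r of EMP1 was -0.78 without the array of C10 over 26 (adjusted p = 0.348, limma unweighted). With 1 array left out, COLEC12 did not pass in 5 of 24 unweighted fits and EMP1 in 8 of 24. Both patterns rest in large part on 31 and 46: without those follicles r was -0.67 for COLEC12 and -0.58 for EMP1, and neither passed.

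SDC4, a heparan sulphate proteoglycan of the cell surface, and PLAUR, the receptor of urokinase, passed in the weighted fit alone. SDC4 was 1.36 in 46, 0.78 in C22, 0.77 in 31 and 0.75 in 33, and its lowest level was -1.02 in H893 (adjusted p = 0.0236 weighted and 0.253 unweighted, limma). PLAUR was 1.09 in 46 and 0.91 in 31, with C22 next at 0.50 (adjusted p = 0.0467 weighted and 0.204 unweighted, limma). Without 31 and 46, r with TMEM176B was -0.36 for SDC4 and -0.15 for PLAUR. All 4 genes passed the F test between follicles, which 11.8% of all 9026 genes passed.

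The number of genes called with TMEM176B by the unweighted fit was 0 without the level of 46, and 0 when single arrays were left out, namely C12 over H893, 26 over C35, C10 over 26, or C22 over C35. It was 1 without the level of C32. Also it was 1 without the array of 33 over C12, 46 over 861, H893 over 31, 31 over C10 or J980 over 27, and 4 without that of C26 over 33. Without J980 and its arrays it was 3, COLEC12 and EMP1 included. The weighted fit was run on all arrays only.

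The other genes with the strongest negative r were TAP1, PDGFC and LOXL1. TAP1, part of the peptide transporter for MHC class I, had r = -0.83 (adjusted p = 0.12 unweighted and 0.0673 weighted, limma). PDGFC, a growth factor, had r = -0.79, and LOXL1, an enzyme that crosslinks elastic fibres, had r = -0.78. All 3 were highest in 46, at 0.45, 0.37 and 0.97. Without 31 and 46, r was -0.50 for TAP1, -0.57 for PDGFC and -0.27 for LOXL1.

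On the positive side the 10 genes with the largest r lay between 0.75 and 0.81, and none passed (adjusted p from 0.165 to 0.299, limma unweighted). They were ZNF462, ASCC1, AAR2, PWWP3A, UGGT1, IGF1, SORD, CCDC92, IL11RA and CIITA. Of these 10 only CIITA passed the F test between follicles, while 11.8% of all 9026 genes passed. CIITA, the master activator of MHC class II transcription, was highest in follicle 8 at 0.66 ± 0.15 (SE) and lowest in 31 at -0.56 ± 0.15, with r = 0.75 with TMEM176B and 0.54 without 31 and 46. IGF1, a growth factor of follicles, was 0.39 ± 0.15 in C32 and -0.53 ± 0.16 in 46.

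**Figure D4:**
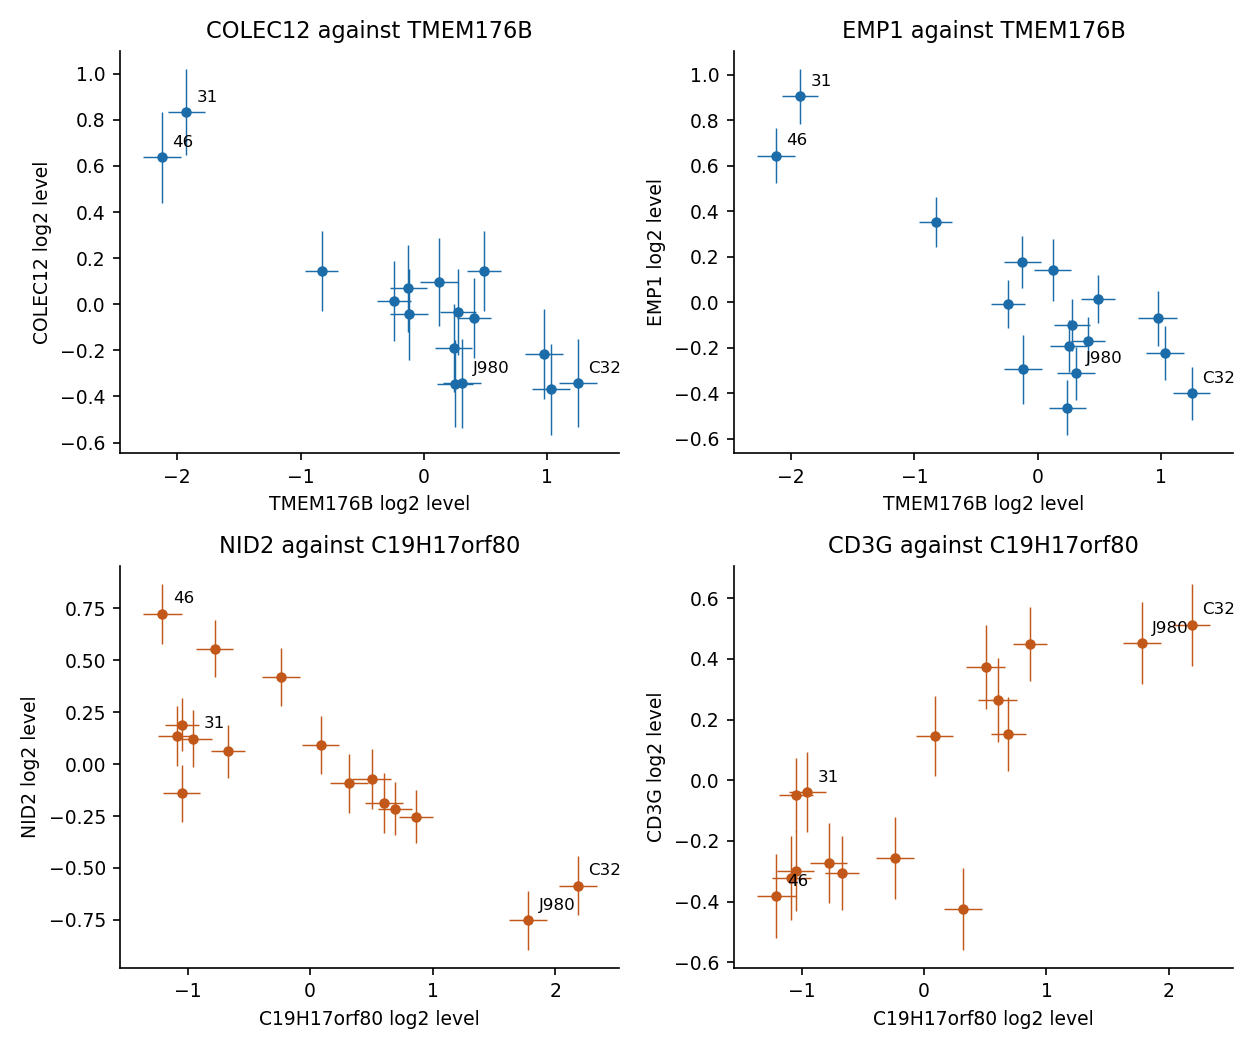
The log2 level of COLEC12 and EMP1 against that of TMEM176B (top) and of NID2 and CD3G against that of C19H17orf80 (bottom), 1 point for each of 16 follicles with SE bars in both directions. In the top panels 31 and 46 lie apart at the upper left; in the lower panels C32 and J980 lie at the right.

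With C19H17orf80 the outcome depended on the fit. The unweighted fit called 11 genes (0.122%), 5 with a positive slope (0.0554%) and 6 with a negative slope (0.0665%). The weighted fit called 0 of 9025 (0%), with 757 (8.39%) at an unadjusted p under 0.05, and its smallest adjusted p was 0.379 (limma), for DEF6. Of the 11 genes 1, NID2, passed the F test between follicles and the other 10 did not, while 11.8% of all 9026 genes passed. The count of the unweighted fit was 0 without the level of 46, and without any of the arrays 33 over C12, 46 over 861, 26 over C35 or C26 over 33. It was 1 without the level of C32. It was 1762 without the array of C10 over 26, 1135 without that of 26 over J980, 132 without that of C22 over C35 and 75 without J980 and its arrays, which kept 8 of the 11 genes. Further arrays moved it to 1 (H893 over 31 or C12 over H893), 2 (C22 over C26), 4 (J980 over 8), 5 (861 over C10 or 31 over C13), 7 (J980 over 27), 24 (27 over C32), 29 (C12 over 46) and 83 (33 over C13). These genes are therefore named with their values and are not called followers.

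NID2, a basement membrane protein, was lowest in J980 at -0.75 ± 0.14 (SE) and in C32 at -0.59, and highest in 46 at 0.72 ± 0.14. Its r with C19H17orf80 was -0.81, and -0.65 without the 2 farthest follicles, C32 and J980 (adjusted p = 0.0376 unweighted and 0.428 weighted, limma). CD3G, a subunit of the T cell receptor complex, was 0.51 ± 0.14 in C32, 0.45 in J980 and 0.45 in C26, and lowest in 861 at -0.42 ± 0.14, with r = 0.82 (adjusted p = 0.0376 unweighted and 0.513 weighted, limma). The adjusted p of CD3G in the F test between follicles was 0.0763 (limma).

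The remaining genes of the unweighted fit were RALGPS1, TNFSF10, CUEDC1 and DEF6 on the positive side and MYBBP1A, RALY, YTHDC2, DDX1 and SELENOW on the negative side. RALGPS1, an exchange factor for Ral GTPases, had r = 0.86. TNFSF10, the death ligand TRAIL, had r = 0.84, as did DEF6, an exchange factor of immune cells. MYBBP1A, a nucleolar protein, had r = -0.87, RALY, an RNA-binding protein, r = -0.85, YTHDC2, an RNA helicase, r = -0.83, and SELENOW, a selenoprotein, r = -0.81. Some of these rested on single arrays. Without the array of C26 over 33 the r of RALY was -0.36, and without that of C32 over C26 it was -0.38. Without the array of 26 over J980 the r of DEF6 was 0.34, and without J980 and its arrays it was 0.36. Without J980 and its arrays r was -0.52 for DDX1, which was lowest in J980 at -0.83, and between 0.76 and 0.85 in size for RALGPS1, TNFSF10, CUEDC1, MYBBP1A, RALY, YTHDC2 and SELENOW. The r of YTHDC2 was -0.54 without the array of C35 over 27, and that of CUEDC1 was 0.56 without that of H893 over 861 and 0.47 with 1 of its features in place of their mean. SELENOW lay outside the rule for named genes and was named after its values were seen. CUEDC1 and DDX1 were each the mean of 2 features, whose levels correlated at -0.10 and 0.34, so their values are uncertain. FKBP8, SHF, STK10, C15H11orf52 and RMND5B complete the 10 genes of largest positive r, at 0.82 to 0.87, and did not pass.

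One array feature without a gene symbol, 13_19_18, had almost the same levels as C19H17orf80; it was picked out after the values of all features had been seen, so its likeness carries no test. Its r with C19H17orf80 over the 16 follicles was 0.98 and rho was 0.98, while the next feature reached 0.87. The unnamed feature stood at 2.43 ± 0.24 (SE) in C32 and 2.19 ± 0.24 in J980, and at -1.81 ± 0.25 in H893 and -1.59 ± 0.25 in 46. Its ratios had the same sign as those of C19H17orf80 on 24 of 24 arrays, with r = 0.97 over arrays. Its differences were wider, with a slope of 1.22 and an SD over follicles of 1.31 against 1.06. The ID of the C19H17orf80 feature, 15_19_18, ends in the same numbers, and what these numbers mean no source used here tells. The other 29 features with that ending had r between -0.52 and 0.73 with C19H17orf80, with a median of 0.03. Whether both features report 1 transcript was not tested.

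**Figure D5:**
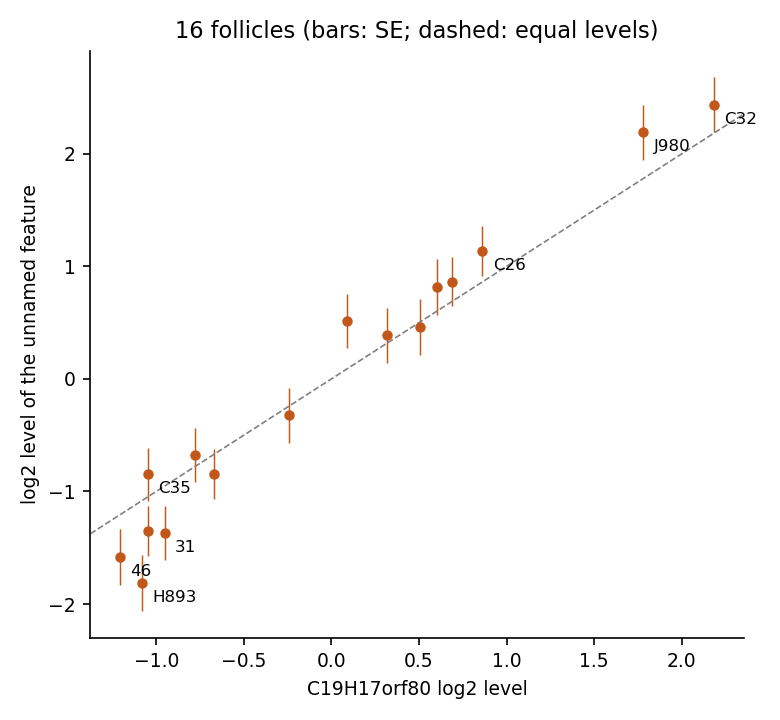
The log2 level of the unnamed feature (vertical, with SE bars) against that of C19H17orf80 (horizontal) in the 16 follicles; the dashed line marks equal levels. C32 and J980 are at the upper right, and H893 and 46 at the lower left.

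When every feature was tested alone, limma unweighted called 17 of 16357 (0.104%) with C19H17orf80 and 3 (0.0183%) with TMEM176B, the latter all with a negative slope. The third, beside COLEC12 and EMP1, was a METTL3 feature with r = -0.85 (adjusted p = 0.0432, limma). METTL3, the catalytic subunit of the RNA m6A methyltransferase, was not called when the features of each symbol were averaged. It was named after its values were seen.

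No measured relative of TMEM176B was called with it. TMEM176A lay between -0.21 in 33 and 0.08 in 26, with an SD over follicles of 0.07 against an SE of 0.09 in each of these, and its r with TMEM176B was 0.18 (adjusted p = 0.80, limma unweighted). Differences of TMEM176A between follicles did not pass the F test (adjusted p = 0.819, limma). MS4A7, a relative found in macrophages, had r = 0.59. MS4A8 had r = 0.32, but -0.17 without 31 and 46. MS4A7 was 0.88 ± 0.52 (SE) in 27 and -0.92 ± 0.45 in 31, a wide error for 1 feature.

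The genes beside each member in the genome were also measured in part. In the RefSeq table TMEM176B lies on chromosome 4, and 10 of its 20 nearest neighbours were measured. None was called (0 of 10), with r between -0.18 and 0.68. Of all 9025 genes 608 (6.74%) had a positive slope with an unadjusted p under 0.05, and so did 2 of the 10 neighbours. These were LOC530077 at r = 0.68 and ABCB8, a mitochondrial transporter, at r = 0.58. C19H17orf80 lies on chromosome 19, where 3 of 20 neighbours were measured and 0 were called. FAM104A, next to it, had r = -0.58 (p = 0.0124 unadjusted and 0.133 adjusted, limma unweighted). COG1, a Golgi protein whose 2 features correlated at -0.56, had r = 0.37.

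Cell types and pathways were described with 13 gene lists, of which 177 of 284 genes were measured. No gene of any list was called with TMEM176B by either fit, and with C19H17orf80 the unweighted fit called CD3G alone. ZNF462, above, and CSF1R, INSL3, ITGA2B, KIT and TEFM were means of 2 to 7 features whose median correlation with each other was no higher than 0.154, so their values are uncertain. For comparison, the median r over all 9025 genes was -0.02 with TMEM176B and 0.00 with C19H17orf80. With TMEM176B and C19H17orf80 in turn, 48.4% and 50.1% of all genes had a positive r.

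Of the MHC class II presentation genes, 15 of 23 were measured. With TMEM176B 11 of 15 had a positive r, with a median of 0.34, and with C19H17orf80 12 of 15 did, with a median of 0.46. Without the 2 follicles farthest from the median of each gene, these medians were 0.12 and 0.28. BOLA-DRA, the alpha chain of the DR molecule, was 1.24 in C32 and 1.23 in C26, 0.58 in J980, and lowest in 46 at -0.83 and in 31 at -0.63. Its r was 0.54 with TMEM176B and 0.74 with C19H17orf80 (adjusted p = 0.299 and 0.0628, limma unweighted). IFI30, a lysosomal thiol reductase, had r = 0.57 with TMEM176B, BOLA-DOA had r = -0.50, and neither passed. Of the list, 7 of 15 genes passed the F test between follicles, against 11.8% of all 9026 genes. This was not particular to it, since 8 of 15 granulosa and 8 of 10 theca markers passed too.

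Inflammasome genes showed no common direction with TMEM176B: 4 of 8 measured genes had a positive r, with a median of 0.02. Without 31 and 46 the median was -0.06. CASP1, the protease of the complex, had r = 0.47, and 0.18 without those follicles, and NLRP1, a sensor, had r = 0.22.

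Macrophage and dendritic cell markers were measured for 23 of 32 genes, and 15 of 23 had a positive r with TMEM176B, with a median of 0.22. The mean level of the list ran from -0.15 in H893 to 0.25 in C26, and was 0.19 in C32 and -0.10 in 46. Its r with TMEM176B was 0.36 and with C19H17orf80 0.50. The median r over the list with C19H17orf80 was 0.24, and it was 0.04 without C32 and J980 and 0.13 without J980. CSF1R, the receptor of macrophage growth factor, had r = 0.58 with TMEM176B, CD86, a costimulatory ligand, had r = -0.58, or -0.29 without 31 and 46, and CD14, a defining marker, had r = -0.10. The part of these cells in the levels of TMEM176B and C19H17orf80 was not tested.

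Lymphocyte and plasma cell markers were measured for 23 of 31 genes, and 18 of 23 had a positive r with C19H17orf80, with a median of 0.34, against 15 of 23 and 0.30 with TMEM176B. The mean level of this list had r = 0.75 with C19H17orf80, with its highest level, 0.26, in C26 and its lowest, -0.13, in C12. Without the 2 farthest follicles, the median r over the list was 0.15 with C19H17orf80 and 0.16 with TMEM176B. CD3D, another subunit of the receptor complex, had r = 0.63 and CD3E r = 0.12. LCK, a T cell kinase, had r = 0.58 with TMEM176B, and BLNK, a B cell adaptor, r = -0.70.

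No granulosa or theca marker was called with either gene. For granulosa cells 8 of 15 measured genes had a positive r with TMEM176B, with a median of 0.11, and 7 of 15 did with C19H17orf80, with a median of -0.04 that became 0.12 without J980. INHA, the inhibin alpha subunit, had r = 0.49 and IHH, a hedgehog ligand, r = 0.35 with TMEM176B. For theca cells 7 of 10 had a positive r with each gene, with medians of 0.28 and 0.24. Without the 2 farthest follicles of each gene the theca medians were -0.05 and 0.08. SCARB1, the receptor of high-density lipoprotein, had r = 0.54 with TMEM176B but -0.22 without 31 and 46, and INSL3, a theca hormone, had r = 0.44.

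Over 13 endothelial markers the median r was -0.15 with TMEM176B and -0.11 with C19H17orf80, but the mean level of the list had r = 0.38 and 0.56, of the opposite sign. PECAM1, an adhesion molecule of endothelium and leukocytes, had an SD of 1.11 over follicles and r = 0.43 and 0.55. It was named after its values were seen. SELE, a leukocyte adhesion molecule, had r = 0.62 with TMEM176B, and EGFL7 had r = -0.57, or -0.30 without 31 and 46.

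Of 14 oocyte markers 3 were measured. ZP3, a zona pellucida protein, had r = 0.40 with TMEM176B and 0.67 with C19H17orf80. KIT, a receptor of the oocyte, had r = 0.07 and 0.48, and the first was -0.11 without 31 and 46. The median over the 3 genes was 0.07 with TMEM176B and 0.48 with C19H17orf80, and the mean level had r = 0.36 and 0.72. The slopes of ZP3 and KIT on TMEM176B were negative in the weighted fit, at -0.03 and -0.04. No oocyte marker was called.

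Stromal and smooth muscle markers had medians of -0.08 and -0.09 over 16 genes with TMEM176B and C19H17orf80, which became 0.00 and 0.06 without the 2 farthest follicles of each gene, and the second 0.03 without J980. CNN1, a smooth muscle protein, had r = -0.62 and THY1 r = 0.47 with TMEM176B. Erythrocyte and platelet markers had medians of 0.02 and 0.00 over 7 genes, while their mean level had r = -0.31 and -0.51. ITGA2B had r = 0.67 and EPB42 r = -0.34 with TMEM176B, and the slope of EPB42 was 0.03 in the weighted fit. Interferon-induced genes had medians of 0.08 and 0.20 over 17 genes, and without 31 and 46 the first was -0.19. ISG20 of this list had r = 0.46 with TMEM176B.

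No gene of mitochondrial DNA maintenance and transcription was called with C19H17orf80. Of 36 listed genes 23 were measured, and 10 of 23 had a positive r, with a median of -0.15 that became -0.05 without J980. PHB1, prohibitin of the inner membrane, had r = -0.62 and was lowest in J980 at -0.81 ± 0.11 (SE), and without J980 its r was -0.50. TK2, the mitochondrial thymidine kinase, had r = -0.61. With TMEM176B, RRM2B, a ribonucleotide reductase subunit, had r = 0.66 and TEFM, a transcription elongation factor, r = -0.56. None of these passed (adjusted p from 0.113 to 0.323, limma unweighted).

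Follicle identifiers come in different forms, 7 beginning with C and 9 not, with no meaning given in the labels. The mean TMEM176B level was 0.38 ± 0.43 (SD, n = 7) with C and -0.30 ± 1.14 (n = 9) without, a difference of 0.68 (p = 0.167, exact two-sided permutation test over 11440 divisions). The 7 follicles with C lay between -0.12 and 1.25, inside the range of the others, -2.12 to 1.04, apart from C32. For C19H17orf80 the means were 0.06 ± 1.13 (SD, n = 7) and -0.04 ± 1.06 (n = 9), a difference of 0.10 (p = 0.856, exact permutation test). By limma over all 9026 genes 0 differed between these identifiers (0%), and 233 (2.58%) had an unadjusted p under 0.05.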

How the data were processed

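The authors deposited a table of log2-like ratios, 1 for each feature and array. Per the labels' protocols RNA was labelled with dendrimer reagents and scanned on an Axon instrument, and images were measured in GenePix Pro 4.0.1.12. Background correction, spot filter and normalization: not given in the sources used here. With a largest absolute value of 6.32, above the limit of 4.82 for base 10 on a 16-bit scanner, the ratios are not log10, but they could be natural logs. Unused columns of per-sample values numbered 0.

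Of 17418 features, 13605 had 1 gene symbol in the platform annotation. Each array was centred on its median, and features of a symbol were averaged. Features on at least 20 arrays entered a fit of follicle effects (1 for Cy5, -1 for Cy3) and a dye term with moderated variances (limma 3.58.1, R 4.3.3), with a threshold of 0.05 after Benjamini-Hochberg adjustment. Neighbours came from the RefSeq table of assembly ARS-UCD2.0. The sources used here name no build for the array, so coordinates are left out.

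The genes, the 13 lists and the tests were chosen with earlier results of these data known. Named genes were, for each member, the 10 with the largest positive and the 5 with the largest negative r, TMEM176A, 2 neighbours, and 2 genes from each list by association p with TMEM176B (for the mitochondrial list also with C19H17orf80). BOLA-DRA, SDC4, PLAUR, SELENOW, BOLA-DOA, CD14, CD3D and CD3E were named after their values were seen. The F test and both association fits were tested on simulated data; the unweighted association fit made many more false calls than its threshold allows, the weighted fit fewer, though still more than the threshold allows in some settings. P-values of the association fits and of the identifier contrast measure the spread between these 16 RNA samples. Those of the F test and of the dye term are scaled by array error. Plots were made in Python 3.11.15 with matplotlib 3.10.9.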

Additional observations from a re-analysis of the deposited data

How the results depend on the processing

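Alternatives changed the centring, scaling, feature filter, dye term, moderation, covariate, and the arrays or follicles included. Neither the r between the members nor the r of any gene called by the unweighted fit changed sign. The signs of the members' levels in single follicles were not recorded under the alternatives. Among genes not called, SCARB1, MS4A8 and KIT changed the sign of r with TMEM176B without 31 and 46, as did the theca, inflammasome, interferon, stromal, oocyte and erythrocyte medians, and ZP3, KIT and EPB42 changed the sign of the slope in the weighted fit. The SD of both levels moved by less than the array error under all of them. The F test count of 1061 was 608 with no dye term, 589 with no moderation and 664 without J980, and 684 to 1175 with 1 array left out. Leaving out 1 array gave a range of 3.18 to 3.64 for TMEM176B and 3.15 to 3.76 for C19H17orf80, and r between both of 0.47 to 0.59. Without 46 and 31 that r was 0.44. Scaling arrays to one MAD gave C19H17orf80 a range of 3.60 and a largest gap share of 34.7%.

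The 2 genes called with TMEM176B by the unweighted fit became 1 with features on all 24 arrays, with no moderation or without C32, and 0 with ranks, without 46, or without 46 and 31. They became 4 with the loop covariance, added after the data were seen, and 0 to 4 with 1 array left out. The 11 called with C19H17orf80 became 0 with arrays scaled to one MAD, without 46, without C32 and J980, with the first principal component removed and with the loop covariance. They became 1 without C32, 2 with no moderation or with ranks, 6 with no dye term and 75 without J980. With 1 array left out they ran from 0 to 1762. Features tested alone gave 17, and the unnamed feature as covariate 85; both were added after the data were seen. The contrast of identifiers called 0 genes under all alternatives. The cause of these moves was not tested. Without the array of C10 over 26, that of C26 over 33 alone joined both sets of follicles, and the reverse. No paired analysis was possible because replicate numbers only follow the order of the arrays and pair nothing.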

Other observations

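While the levels of TMEM176B and C19H17orf80 correlated positively over the follicles, what the loop left over on each array went the other way. The residuals of both genes over the 24 arrays had r = -0.71, with 8 residual degrees of freedom behind them, and the measured ratios themselves had r = 0.26. The residuals of C19H17orf80 and of the unnamed feature had r = 0.41. These values are given as a description of these arrays.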
